A study of Mus musculus with 16 samples.

Results

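The H3K27ac regions described here lie deep inside genes of mouse liver, away from gene starts and gene ends. They were 14367 of the 52645 regions deposited (27.3%): those on chromosomes 1 to 19 that are shorter than 2500 bp and whose midpoint lies inside a protein-coding gene and more than 10 kb from both ends of every protein-coding gene of mm10. Of these, 14276 lay in 1 gene and 91 in more than 1. The host of a region is the gene or set of overlapping genes that holds it, and the 14276 had 2789 hosts. The member nearest to a gene end was 10006 bp away and the nearest region left out was 10000 bp away. The longest member measured 2497 bp and the shortest deep region left out for its length measured 2505 bp.

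H3K27ac, the acetylation of a lysine in the tail of histone H3, marks active promoters and enhancers. Inside a gene and far from its start it often lies over an enhancer of that gene or of a neighbour, or over an internal promoter. NCoR1 is a corepressor that brings a histone deacetylase to genes bound by nuclear receptors, among them thyroid hormone receptors without hormone. Propylthiouracil (PTU) blocks the synthesis of thyroid hormone, which needs iodine.

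The mark was measured by ChIP-seq in 12 liver libraries in 4 groups of 3. The mice were wild type (WT) or NCoR1 knockout (KO), both with a background labelled C57BL/6J. Each genotype received chow or a low-iodine diet with 0.15% PTU (PTU/LID). For both diets the labels give 3 weeks starting at an age of 6 weeks, with collection on day 21. The labels do not say how or in which cells Ncor1 was deleted, nor that the libraries come from separate animals, so the spread that the tests use is that between libraries and may be technical. Libraries are called here by their group and the last number of their title, such as WT chow-106. Whole liver holds several cell types, so fewer cells of a type and less acetylation per cell cannot be told apart. Values are CPM (read counts of a region relative to the library's total) scaled by TMM factors, and levels of different regions are compared only as CPM per kb. Changes are log2 fold changes with their standard error (SE) from edgeR's quasi-likelihood test, and p-values are adjusted by Benjamini-Hochberg over all 52606 regions tested, 14362 of them members. A region is called when its adjusted p is below 0.05.

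Most members lay over no annotated gene start: 13926 (96.93%) did not overlap a RefSeq promoter window, which begins 250 bases before a start. Another 318 (2.21%) overlapped the window of an internal start of their host and 123 (0.86%) that of a start of another gene. Of the members called in at least 1 comparison, 56 were at a start and 41 at a start of their own host. The sequences below are the 250 bases before 6 of these internal starts, of genes from the lists described further on, and show the letters at or beside called members. They are RefSeq sequence of GRCm38.p6, the assembly of mm10, written 5′ to 3′ on the strand of the gene. Capitals mark AGGTCA, the half-site shared by many nuclear receptors, or its reverse complement TGACCT. Nr6a1 encodes an orphan nuclear receptor, Stat5b the growth hormone-activated transcription factor, Papss2 an enzyme that makes the sulfate donor, Lipc hepatic lipase, Prlr the prolactin receptor and Srebf1 the master regulator of lipid synthesis genes.
Nr6a1, minus strand, chr2:38784516-38784765: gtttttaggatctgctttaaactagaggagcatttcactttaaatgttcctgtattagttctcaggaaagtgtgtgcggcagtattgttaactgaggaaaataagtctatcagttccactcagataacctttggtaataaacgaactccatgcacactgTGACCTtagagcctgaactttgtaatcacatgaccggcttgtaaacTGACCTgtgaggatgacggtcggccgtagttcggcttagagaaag
Stat5b, minus strand, chr11:100822571-100822820: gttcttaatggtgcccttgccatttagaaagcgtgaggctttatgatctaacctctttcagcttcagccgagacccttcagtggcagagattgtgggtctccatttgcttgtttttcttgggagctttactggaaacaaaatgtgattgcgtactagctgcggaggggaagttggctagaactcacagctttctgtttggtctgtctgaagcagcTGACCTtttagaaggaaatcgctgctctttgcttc
Papss2, plus strand, chr19:32619755-32620004: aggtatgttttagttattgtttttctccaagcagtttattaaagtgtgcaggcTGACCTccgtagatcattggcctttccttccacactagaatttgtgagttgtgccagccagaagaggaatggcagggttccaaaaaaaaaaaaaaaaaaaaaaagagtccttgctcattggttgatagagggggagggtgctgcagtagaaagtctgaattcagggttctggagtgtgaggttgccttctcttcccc
Lipc, minus strand, chr9:70934809-70935058: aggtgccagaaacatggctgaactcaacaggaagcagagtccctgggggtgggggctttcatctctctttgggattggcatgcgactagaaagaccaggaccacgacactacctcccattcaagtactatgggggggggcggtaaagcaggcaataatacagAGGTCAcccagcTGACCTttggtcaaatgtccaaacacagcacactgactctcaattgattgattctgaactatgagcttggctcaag
Prlr, plus strand, chr15:10223656-10223905: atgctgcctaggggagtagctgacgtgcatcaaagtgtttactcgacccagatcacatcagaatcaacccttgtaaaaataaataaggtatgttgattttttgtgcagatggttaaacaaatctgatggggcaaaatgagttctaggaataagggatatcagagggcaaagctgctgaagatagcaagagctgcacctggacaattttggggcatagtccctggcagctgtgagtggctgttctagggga
Srebf1, minus strand, chr11:60210472-60210721: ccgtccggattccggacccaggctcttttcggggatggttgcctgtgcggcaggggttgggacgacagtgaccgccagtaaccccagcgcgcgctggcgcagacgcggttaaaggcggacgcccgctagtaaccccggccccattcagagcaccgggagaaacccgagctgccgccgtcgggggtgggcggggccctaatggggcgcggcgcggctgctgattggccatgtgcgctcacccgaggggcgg

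The window of Nr6a1 held TGACCT at 2 places, those of Stat5b and Papss2 at 1, that of Lipc both orientations once, and those of Prlr and Srebf1 neither. Searched on both strands, the 6 letters occurred in 4607 of 32851 RefSeq windows of the same length (14%), and in 6 of the 14 distinct windows at starts where members of the listed genes were called. A match describes the letters only. The region at chr11:100821077-100823467, which covers the whole Stat5b window, held 64.5, 73 and 68 CPM in WT PTU/LID and 88, 108 and 109 in KO PTU/LID. The genotypes did not overlap there, and the KO was higher on PTU/LID (log2 fold change 0.57 ± 0.16, adjusted p = 0.0281), a call lost without KO PTU/LID-232, KO PTU/LID-239, WT PTU/LID-135, WT PTU/LID-155 or WT PTU/LID-280, and with only the 2 groups in the fit. Both regions beside the Prlr window were also higher in the KO on PTU/LID, by 1.25 ± 0.24 at chr15:10222742-10223664 (adjusted p = 0.00141) and by 1.09 ± 0.22 at chr15:10223955-10224835 (adjusted p = 0.00162), both log2 fold changes. At the first, the libraries held 11.4, 9.69 and 7.6 CPM in WT PTU/LID and 25.3, 26.5 and 15.7 in KO PTU/LID, without overlap.

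Regions inside Nr6a1 and Srebf1 also passed the test near their internal starts. The Nr6a1 region at chr2:38782758-38784545 held 29.6, 29.9 and 37.2 CPM in WT PTU/LID and 45.3, 60.9 and 56.1 in KO PTU/LID. On PTU/LID the KO was higher by 0.75 (adjusted p = 0.00917) on the log2 scale, without overlap, and the call was lost without KO PTU/LID-232, KO PTU/LID-239 or WT PTU/LID-155. In WT the same region was lower on PTU/LID (log2 fold change -0.61 ± 0.18, adjusted p = 0.0484), as was its neighbour at chr2:38784651-38785362 (log2 fold change -0.82 ± 0.24, adjusted p = 0.0473). Each of these diet calls was lost without any 1 of most libraries, and they share the WT PTU/LID libraries with the genotype call. The region at the Srebf1 start, chr11:60210606-60211469, held 17, 12.4 and 15.5 CPM in WT chow, 27.9, 23.8 and 28.3 in KO chow, 15.2, 19.8 and 20.5 in WT PTU/LID, and 29.9, 31.3 and 30.5 in KO PTU/LID. The KO was higher than WT on both diets with no overlap, by 0.82 (adjusted p = 0.0174) on chow and 0.71 (adjusted p = 0.0238) on PTU/LID on the log2 scale. The first call was lost without KO chow-122, KO chow-190, WT chow-96 or WT chow-99, and the other without KO PTU/LID-232, KO PTU/LID-239, WT PTU/LID-135 or WT PTU/LID-155, and with only the 2 groups compared in the fit. At the Papss2 window the region at chr19:32619940-32621150 was higher in the KO on PTU/LID (log2 fold change 0.93 ± 0.21, adjusted p = 0.00657), a call lost without KO PTU/LID-239. The Lipc region at chr9:70934878-70936125 held 32, 23.7 and 19.3 CPM in WT PTU/LID and 25.8, 47.3 and 44.8 in KO PTU/LID. These groups overlapped, and the call was near the threshold (log2 fold change 0.69 ± 0.20, adjusted p = 0.0464).

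Members were short and of low level. Their length ran from 200 to 2497 bp with a median of 429, against 468 over all regions. Their median level over the 12 libraries was 17.6 CPM per kb (5th to 95th percentile 11.5 to 32.2), against 18.7 over all regions. It was 20.8 for regions within 2.5 kb of a gene end and 17.9 for regions outside genes and more than 10 kb away. Regions of 2500 bp or longer had 33.7. Members at an internal start of their host had a median of 23.1 CPM per kb. By group the median was 18.8 CPM per kb in WT chow, 17.1 in WT PTU/LID, 17.4 in KO chow and 17.3 in KO PTU/LID. The median spread between libraries of a group was an SD of 0.292 on the log2 scale, against 0.278 over all regions. It was 0.262 for regions at gene ends and 0.297 for regions outside genes. The exons are not in the table used, so exon and intron were not told apart.

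The highest levels belonged to few hosts, and some of them varied widely between libraries. A pair of regions inside Myo3a, which encodes an actin-based motor, reached 681 and 579 CPM per kb, but they are among the 10 nuclear regions that followed the mitochondrial counts over the 12 libraries with a correlation above 0.9. The region of 681 CPM per kb, chr2:22588536-22590125, held 194, 1024 and 1666 CPM in WT chow, 692, 189 and 231 in WT PTU/LID, 1110.0, 6252 and 724 in KO chow, and 564, 172 and 168 in KO PTU/LID. Its groups overlapped except for PTU/LID against chow in KO, and it was called in no comparison. Regions inside Cdk8, a kinase of the Mediator complex, Epc1, a subunit of a histone acetyltransferase complex, Gphn, which anchors receptors at synapses, and Camk1d, a calcium-dependent kinase, followed with 230, 172, 141 and 114 CPM per kb. None of these was called either.

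A small number of long genes held many of the members. Among members that lay in 1 gene, the median host had 3, 774 hosts had 1, and the 407 hosts with 10 or more held 49.3% of these members. Nfia, a transcription factor of the nuclear factor I family, held 62, Prkce, a protein kinase C, 58, Zbtb20, a zinc finger repressor needed for liver maturation, 51, Rora, an orphan nuclear receptor of the clock and of lipid metabolism, 49, Itpr1, a calcium release channel, 48, and Mtss1, an actin regulator, 46. The median host was 84.7 kb long, and the median member lay 29.2 kb from the nearest gene end, at most 640.3 kb. Of the 11321 members whose host has a known strand, 33.9% lay in the first 1 of 3 equal parts of the gene and 22.8% in the last. The median position was 44.6% of the way from the 5′ end.

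The libraries held 2965505 to 7416187 counts each, of which 597598 to 1462916 were in members, so that the median member had 25 to 52 counts per library. The mitochondrial share of counts ran from 0.717% to 17.2%, and all KO chow libraries were among the 7 libraries with 2.27% or more. Members took 20.79% ± 0.66 (SD, n = 3) of nuclear counts in WT chow, 19.72% ± 0.864 in WT PTU/LID, 19.75% ± 0.26 in KO chow and 19.89% ± 0.525 in KO PTU/LID. The libraries matched the labelled tissue: all 10 hepatocyte marker genes had a region, with a median highest level of 39.8 CPM per kb, against 16.5 over 18 of 34 Kupffer cell and macrophage genes and 18.6 over 32 of 36 endothelial genes. Hnf4a, the liver master regulator, is the 1 hepatocyte marker with members, 12 of them, none called in any comparison. The 4 members inside Ncor1 itself were not called in any comparison, and acetylation there does not test the deletion.

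Members were called about as often as all regions. The share of members called was 3.18% for PTU/LID against chow in WT (3.7% of all regions), 5.93% for PTU/LID against chow in KO (6.21%), 2.07% for KO against WT on chow (2.43%) and 3.46% for KO against WT on PTU/LID (3.86%). Regions outside genes were called more often, at 5.58%, 11.2%, 4.26% and 6.86%, and regions at gene ends less often, at 2.85%, 3.48%, 1.54% and 2.37%, with no test of those differences. The direction also varied. Members made 40.0% of their calls upward for the diet in WT, against 48.8% over all regions, and 50.8% for the KO on chow, against 66.1%. For the diet in KO the share was 53.8%, against 52.7%, and for the KO on PTU/LID 82.1%, against 81.9%, close to the background. The member shares for the diet in WT and the KO on chow moved with the method. They were 49.2% and 63.3% with DESeq2, and 66.0% and 68.4% with TMM factors from members. Shares over all regions with these methods are not given here.

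**Figure D1:**
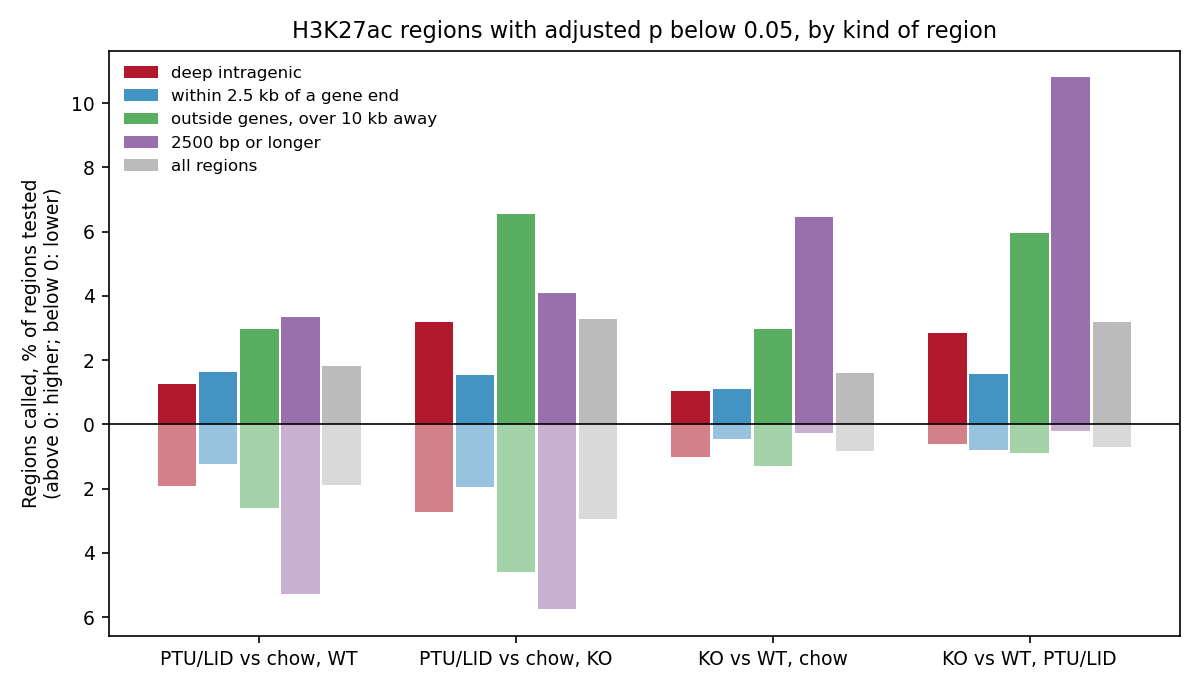
Share of tested regions with adjusted p below 0.05 in each comparison, as a percentage, higher above the 0 line and lower below it; bars stand for deep intragenic regions, 3 other kinds of region and all regions. Deep intragenic bars (red) stay near the grey bars of all regions, and in the last comparison 2.84% of them are higher and 0.62% lower.

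The median change of members depended on their level. In WT, the median log2 change on PTU/LID was -0.112 over members and -0.031 over all regions, and from the lowest to the highest quartile of mean CPM it was -0.24, -0.16, -0.08 and 0.00. For the KO on chow the quartiles had medians of -0.26, -0.15, -0.02 and 0.11. Both comparisons share the WT chow libraries, whose members had the highest median level, 7.788 ± 0.305 CPM (SD, n = 3) against 7.045 ± 0.372, 7.244 ± 0.207 and 7.197 ± 0.21 in WT PTU/LID, KO chow and KO PTU/LID. For PTU/LID in KO the quartiles had medians from -0.04 to 0.02, and for the KO on PTU/LID from -0.10 to 0.09. With library offsets from a cyclic loess fit on level, the medians of the 4 quartiles lay between -0.07 and -0.06 in WT and between -0.02 and 0.00 for the KO on chow. In the lowest quartile, calls in WT were then 9 higher and 14 lower, in place of 2 and 31.

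**Figure D2:**
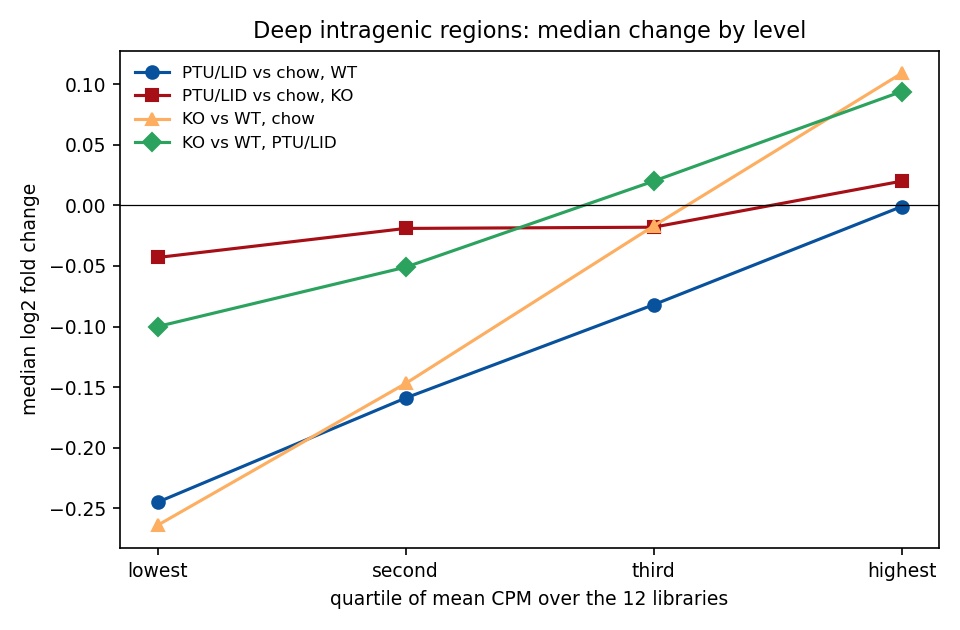
Median log2 fold change of members in each quartile of mean CPM over the 12 libraries, 1 line for each comparison of 2 groups. The lines of PTU/LID against chow in WT and of KO against WT on chow start at -0.24 and -0.26 in the lowest quartile and end at 0.00 and 0.11 in the highest.

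In WT, PTU/LID raised acetylation at 183 members (1.27%, against 1.81% of all regions) and lowered it at 274 (1.91%, against 1.9%). The calls that fell included regions inside the genes of the growth hormone, prolactin and leptin receptors, major urinary protein genes, Zbtb20 and Nfix, and those that rose included regions inside Bptf, Nav2, Nrg2 and Dner. The groups did not overlap at 428 of the 457 members called and at 1851 of the 1949 among all regions, and 209 changed by more than 2-fold (45.7%, against 48.0%). Called or not, the groups were apart at 21.9% of members and 21.5% of all regions. The region inside Bptf, the gene of a subunit of a nucleosome remodelling complex, at chr11:107043516-107044476, held 12.9, 16.8 and 16.8 CPM in WT chow and 38.5, 63.1 and 59.5 in WT PTU/LID. Every PTU/LID library was above every chow library (log2 fold change 1.82 ± 0.21, adjusted p = 2.62e-07). Inside Nav2, which regulates the cytoskeleton of growing cells, the values at chr7:49351357-49351910 were 6.78, 9.5 and 8.28 CPM in WT chow and 34.4, 21.3 and 25.7 in WT PTU/LID. They did not overlap either (log2 fold change 1.74 ± 0.25, adjusted p = 1.65e-05). Nrg2, a ligand of ErbB receptors, rose at chr18:36117679-36118902 by 1.73 (adjusted p = 3.18e-06) on the log2 scale, and Dner, a Notch ligand, at chr1:84399328-84399693 by 1.58 (adjusted p = 0.000941).

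Among the regions that fell in WT, the lowest adjusted p belonged to a region inside Mup-ps12, a gene of the major urinary protein family, whose near-identical copies could share reads, so that the gene is uncertain. At chr4:61455339-61456376 the libraries held 41, 41.2 and 27.6 CPM in WT chow and 8.07, 8.18 and 7.8 in WT PTU/LID. The chow values were all above the PTU/LID values (log2 fold change -2.19 ± 0.21, adjusted p = 3.81e-09). The 3 members whose log2 CPM followed this region most closely over the 12 libraries were 1 inside Zfand3 (Pearson's r 0.969), another inside Mup-ps12 (0.962) and 1 inside Nwd2 (0.961). The Zbtb20 region at chr16:43539232-43539980 held 26.6, 20.6 and 29.8 CPM in WT chow and 7.47, 6.46 and 9.44 in WT PTU/LID, without overlap (log2 fold change -1.72 ± 0.23, adjusted p = 4.05e-06). Of the 51 members inside Zbtb20 it was the 1 called in WT. A region inside Acot11, a fatty acyl-CoA thioesterase, at chr4:106764403-106764904, held 8.27, 9.19 and 10.8 CPM in WT chow and 2.39, 2.37 and 3.28 in WT PTU/LID. The chow values were again higher without overlap (log2 fold change -1.77 ± 0.34, adjusted p = 0.00129).

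The growth hormone and insulin-like growth factor axis had the widest gap between the numbers of higher and lower calls in WT among the 22 gene lists examined. The lists were chosen with earlier results of these data known, so the ranking is a description. Near members of one gene also tended to change alike, so the members of a list are not independent. Of 141 members in 14 of its genes, none rose and 12 fell on PTU/LID (8.51%, against 1.91% of all members), with a median log2 change of -0.42, against -0.11 over all members. The summed level of the 141 was 2180.0 to 2332 CPM in WT chow and 1622 to 1688 in WT PTU/LID. The 12 were 4 inside Ghr, 3 inside Prlr, 2 inside Bcl6 and 1 each inside Igf1, Lepr and Ptpn1. The Prlr region at chr15:10249598-10251636 held 39.8, 53.8 and 48.6 CPM in WT chow and 20.6, 17.7 and 15.4 in WT PTU/LID, with no overlap (log2 fold change -1.41 ± 0.18, adjusted p = 2.17e-06). The Lepr region at chr4:101741196-101743052 held 43, 45 and 52.2 CPM in WT chow and 14.3, 19.6 and 20.5 in WT PTU/LID, also apart (log2 fold change -1.35 ± 0.19, adjusted p = 1.4e-05). Bcl6, a repressor that responds to growth hormone in liver, fell at chr16:23977692-23978341 from 8.6, 10.1 and 8.28 CPM in WT chow to 3.88, 2.58 and 2.67 CPM in WT PTU/LID (log2 fold change -1.58 ± 0.31, adjusted p = 0.00176). The number that fell was 19 without WT PTU/LID-135, and 6 without each of WT PTU/LID-155, WT PTU/LID-280, WT chow-96 and WT chow-99. It was 16 with cyclic loess offsets, 10 with TMM factors from members, and 2 within the 7 libraries of higher mitochondrial share, where 2 WT chow libraries meet 1 of WT PTU/LID.

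Ghr, Papss2 and Igf1 showed the same direction along most of their members, and these genes were chosen after their values were seen. Ghr, the growth hormone receptor, held 32 members, of which 31 were below 0 in WT on PTU/LID with a median log2 change of -0.59, while the 5 regions at its annotated starts ran from -0.22 to 0.67 with none called. In KO, 29 of the 32 were below 0 with a median of -0.40 and 2 were called. The Ghr member with the highest level among the 4 called, chr15:3465120-3466130, held 46, 65.9 and 57.4 CPM in WT chow and 32.9, 27.1 and 33.1 in WT PTU/LID. The groups did not overlap (log2 fold change -0.86 ± 0.19, adjusted p = 0.00497), and the call was lost without WT chow-96. Papss2 had 26 members with a median of -0.68 in WT and 5 called lower, and Igf1, the gene of the growth factor released by liver under growth hormone, had 23 members, all below 0, with 1 called. Thrb, the gene of the thyroid hormone receptor of liver, had 26 members and none was called in any comparison.

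Calls in the other lists were as follows in WT. Liver transcription factors had 2 members higher and 10 lower (2.25%) of 444, in Nfic and Rreb1 and in 8 genes such as Bcl6, Nfix, Nfia and Zhx2, and the number lower was 4 without WT PTU/LID-280, 5 without WT PTU/LID-155 or WT chow-106 and 6 without WT chow-99. Genes of xenobiotic and steroid metabolism had 1 higher and 7 lower among the members of 18 genes, and the 7 became 1 without WT chow-106, 2 without WT PTU/LID-280, 3 without WT chow-96 and 4 without WT PTU/LID-155 or WT chow-99. Genes induced by thyroid hormone had 1 higher, inside Ppargc1a, and 4 lower, inside Gpd2 and Upp2, of 87. These counts ran from 0 to 3 and from 1 to 6 when 1 library was left out. Cell adhesion and cytoskeleton genes had 12 higher and 9 lower of 707 (1.7% and 1.27%, against 1.81% and 1.9% of all regions). The 12 became 5 without WT chow-106, 6 without WT PTU/LID-155 or WT chow-96, 7 without WT PTU/LID-280 and 23 without WT PTU/LID-135, and the 9 became 3 without WT PTU/LID-280 or WT chow-96, 4 without WT chow-106, 5 without WT PTU/LID-155 or WT chow-99 and 23 without WT PTU/LID-135. Markers of sinusoidal endothelial cells had 9 lower (8.65%) and none higher of 104, with a median of -0.46, all inside Nrp1, Ets1 and Erg. The summed level of those 104 members was 1274 to 1319 CPM in WT chow and 917 to 1095 in WT PTU/LID, and the part of these cells in the other changes was not tested. The endothelial count was 15 without WT PTU/LID-135, 3 without WT chow-96, 2 without WT chow-99 or WT PTU/LID-155 and 1 without WT PTU/LID-280. The total of calls was 834 without WT PTU/LID-135, and 140 without WT PTU/LID-280, 187 without WT chow-99, 194 without WT PTU/LID-155 and 217 without WT chow-96, and also smaller by over 1.5 times without WT chow-106. With TMM factors from members alone, which moved the median of all regions from -0.03 to 0.07, 66.0% of 471 calls were upward in place of 40.0%. With DESeq2, 49.2% of calls were upward.

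In KO, PTU/LID raised 458 members (3.19%, against 3.28% of all regions) and lowered 393 (2.74%, against 2.94%). The calls that fell included regions inside Mup-ps12 and Mup5, Nfix, Ets1, Cux2, Cyp3a16 and Cyp2c39, and those that rose included regions inside Iqck, Kcnk3, Gprc5b, Prkce and Pde4d. At 818 of the 851 the groups did not overlap (96.1%, against 96.3% of all regions called), and 420 changed by more than 2-fold (49.4%, against 53.7%). Among all members tested 23.8% had groups apart, against 23.3% of all regions. The Nfix region at chr8:84787881-84789882, inside a gene for a nuclear factor I transcription factor, held 78.6, 59.4 and 79.9 CPM in KO chow and 9.72, 9.8 and 10.5 in KO PTU/LID. All chow values lay above all PTU/LID values (log2 fold change -2.85 ± 0.19, adjusted p = 1.29e-13). In WT the same region held 37.2, 35.2 and 34.5 CPM in WT chow and 14, 10.3 and 15 in WT PTU/LID (log2 fold change -1.45 ± 0.20, adjusted p = 4.35e-06). The members that followed it most closely over the 12 libraries were a pair inside Mup-ps12 (Pearson's r 0.966 each) and 1 inside Adgrv1 (0.961).

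The Mup-ps12 region at chr4:61455339-61456376 held 85.3, 69.2 and 81.9 CPM in KO chow and 13.6, 12.1 and 13.6 in KO PTU/LID. It fell without overlap (log2 fold change -2.59 ± 0.19, adjusted p = 6.41e-13). Ets1, a transcription factor of lymphocytes and endothelium, fell at chr9:32730849-32732006 from 54.6, 36.8 and 38.7 CPM in KO chow to 7.42, 7.73 and 7 CPM in KO PTU/LID (log2 fold change -2.55 ± 0.23, adjusted p = 2.06e-10). Cux2, a homeobox factor with higher levels in female liver, fell at chr5:121999289-121999910 from 9.62, 15.8 and 12.7 CPM in KO chow to 2.56, 1.93 and 2.04 CPM in KO PTU/LID (log2 fold change -2.56 ± 0.32, adjusted p = 3.37e-07). Cyp3a16 and Cyp2c39 belong to cytochrome P450 families with near-identical copies and are uncertain. The Cyp3a16 region at chr5:145453960-145454532 held 9.07, 10.2 and 10.5 CPM in KO chow and 2.05, 0.552 and 1.17 in KO PTU/LID, without overlap (log2 fold change -3.10 ± 0.42, adjusted p = 2.62e-06).

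**Figure D3:**
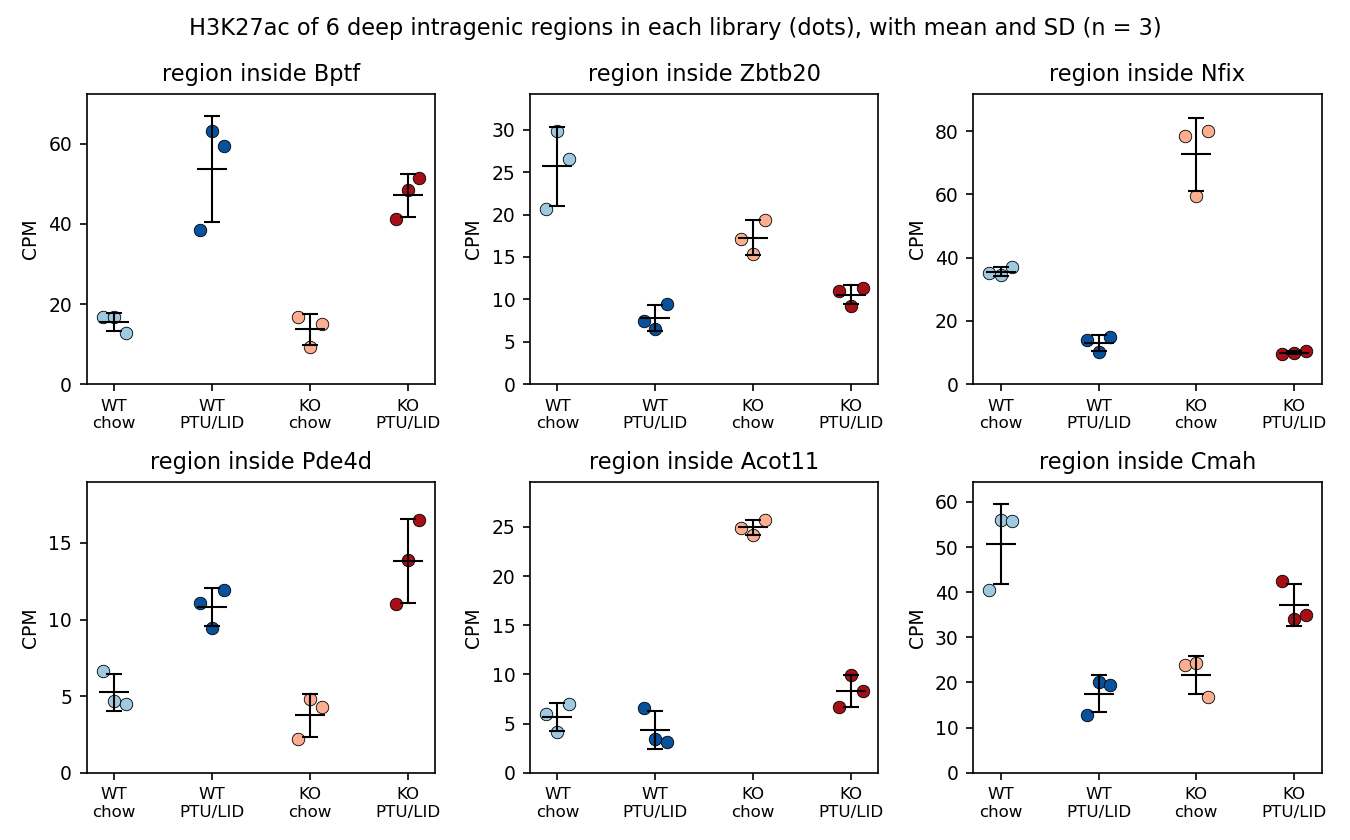
CPM of 6 deep intragenic regions in each of the 12 libraries (dots), with the group mean and SD (n = 3); each panel has its own axis from 0. The Nfix region reaches 59.4 to 79.9 CPM in KO chow and 9.72 to 10.5 in KO PTU/LID, and the Cmah region is highest in WT chow and lowest in WT PTU/LID and KO chow.

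Among the members that rose in KO, the Iqck region at chr7:118935615-118936309 had the largest log2 change. It held 1.63, 9.3 and 4.13 CPM in KO chow and 25.6, 30.9 and 42.9 in KO PTU/LID, without overlap (log2 fold change 2.74 ± 0.37, adjusted p = 6.17e-05). Gprc5b, an orphan receptor gene near Iqck on chromosome 7, rose at chr7:118981982-118982697 by 2.24 (adjusted p = 1.03e-05) on the log2 scale. Kcnk3, a potassium channel that carries background current, rose at both of its members. At chr5:30614491-30615553 they held 6.53, 5.4 and 7.18 CPM in KO chow and 28.1, 29.1 and 47.8 in KO PTU/LID, without overlap (log2 fold change 2.46 ± 0.26, adjusted p = 5.51e-09). Gabbr2, a subunit of the GABA-B receptor, rose at chr4:46952815-46953632 by 1.93 (adjusted p = 0.00258).

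Pde4d, which breaks down cyclic AMP, and Prkce stood out among long hosts, both chosen after their values were seen. Of the 27 members inside Pde4d, 11 rose in KO on PTU/LID and none fell, with 24 above 0 and a median log2 change of 0.81, while in WT 1 rose and the median was 0.21. The region at chr13:109902062-109902629 held 4.46, 6.65 and 4.69 CPM in WT chow, 11.1, 9.47 and 11.9 in WT PTU/LID, 2.18, 4.84 and 4.28 in KO chow, and 11, 13.9 and 16.5 in KO PTU/LID. The diets did not overlap in either genotype, with a log2 fold change of 1.88 ± 0.28 in KO (adjusted p = 1.06e-05) and 1.07 ± 0.30 in WT (adjusted p = 0.0336). The call in WT was lost without WT PTU/LID-155, WT PTU/LID-280, WT chow-106 or WT chow-99. Inside Prkce 11 of 58 members rose in KO and 1 fell, and the region at chr17:86616255-86616710 rose by 2.26 (adjusted p = 7.94e-06). The list of calcium and cyclic nucleotide signalling genes, which holds both, had 29 members higher and 5 lower of 343 (8.45% and 1.46%, against 3.28% and 2.94% of all regions). Pde4d and Prkce gave 11 each of the 29, so the list's share of higher members rests mainly on these hosts. The median of the 343 was 0.12, against -0.01 over all members. Without KO chow-122, KO chow-190, KO PTU/LID-232 or KO PTU/LID-239 the number higher was 19, 17, 19 and 16.

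In other lists, the growth hormone axis had 2 members higher and 7 lower in KO (1.42% and 4.96%) with a median of -0.22. The lower ones lay inside Bcl6, Cux2, Ghr and Prlr. The number lower was 3 without KO PTU/LID-239, 4 without KO PTU/LID-232 and 11 without WT PTU/LID-135, and that of higher ones 0 or 1 without any 1 of 5 KO libraries. Bcl6 fell at chr16:23977692-23978341 from 13.6, 20.8 and 14.5 CPM in KO chow to 6.91, 7.73 and 7.73 CPM in KO PTU/LID (log2 fold change -1.12 ± 0.24, adjusted p = 0.00215). Nuclear receptors had 5 higher (1.9%), inside Rora and Pparg, and 6 lower (2.28%), inside Nr3c1, Ppara and Rarb, of 263, shares below the 3.28% and 2.94% of all regions. The 5 became 2 without KO chow-122, 3 without KO PTU/LID-239 and 8 without WT PTU/LID-135, and the 6 became 3 without KO PTU/LID-232, KO PTU/LID-239 or KO chow-146 and 11 without KO PTU/LID-211. Corepressors and coactivators had 9 higher and 3 lower of 121 (7.44% and 2.48%). The higher ones included those inside Ppargc1a, which drives mitochondrial and fasting genes, and Med13l. Ppargc1a alone gave 6 of the 9, with 16 members and a median of 0.58, and the list had 2 higher without KO PTU/LID-239 or KO chow-190 and 3 without KO chow-122 or KO chow-146. Glucose and glycogen metabolism had 13 higher and 2 lower of 203, the higher ones inside Pde4d and Insr (8 without KO PTU/LID-239, KO chow-122 or KO chow-190), and xenobiotic metabolism 9 higher and 5 lower. Of the xenobiotic counts, the 9 became 4 without KO chow-122 and 5 without KO PTU/LID-239 or KO chow-190, and the 5 became 1 without KO PTU/LID-232, 2 without KO chow-122 or KO chow-190, 3 without KO PTU/LID-211 and 9 without WT PTU/LID-135. Liver transcription factors had 10 higher (2.25%) and 16 lower (3.6%), near the background, and the 10 became 5 without KO chow-190 and the 16 became 9 without KO PTU/LID-239.

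Endothelial markers had 10 members lower (9.62%, against 2.94% of all regions) and none higher in KO, with a median of -0.34. Their summed level was 1102 to 1319 CPM in KO chow and 845 to 954 in KO PTU/LID. Nrp1, a receptor for vascular growth factors and semaphorins, gave 8 of the 10, and all of its 27 members were below 0. Its region at chr8:128462126-128463311 fell by 1.03 (adjusted p = 0.00057) on the log2 scale in KO. The endothelial count was 2 without KO chow-122 or KO PTU/LID-239, 4 without KO PTU/LID-232 and 5 without KO chow-146. The total of calls was 423 without KO PTU/LID-239, 427 without KO chow-122, 518 without KO PTU/LID-232 and 540 without KO chow-190, and no other single library moved it by over 1.5 times.

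The diet comparisons of the 2 genotypes share no library, and they can be set against each other. Of the members called, 138 were called in both, which is 30.2% of those of WT and 16.2% of those of KO. Of these, 54 rose in both, 82 fell in both and 2 had opposite signs. Among the 457 called in WT, 413 had the same sign in KO, and among the 851 called in KO, 702 had the same sign in WT. The overlap was counted over members alone, so it does not tell members from other regions. The Bptf region rose by 1.82 ± 0.21 in WT and 1.78 ± 0.21 in KO on the log2 scale, where it held 16.7, 9.3 and 15.1 CPM in KO chow and 41.2, 48.6 and 51.6 in KO PTU/LID. Enpp2, the gene of autotaxin, which makes lysophosphatidic acid, had 5 of 9 members higher in each genotype. Its region at chr15:54922147-54923766 held 22.8, 19.3 and 21.5 CPM in WT chow, 37.3, 39.6 and 43.1 in WT PTU/LID, 31.4, 26.1 and 25.8 in KO chow, and 52.9, 46.1 and 56 in KO PTU/LID. The diets did not overlap in either genotype (log2 fold change 0.91 ± 0.18, adjusted p = 0.00176 in WT, and 0.90 ± 0.17, adjusted p = 0.000365 in KO).

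**Figure D4:**
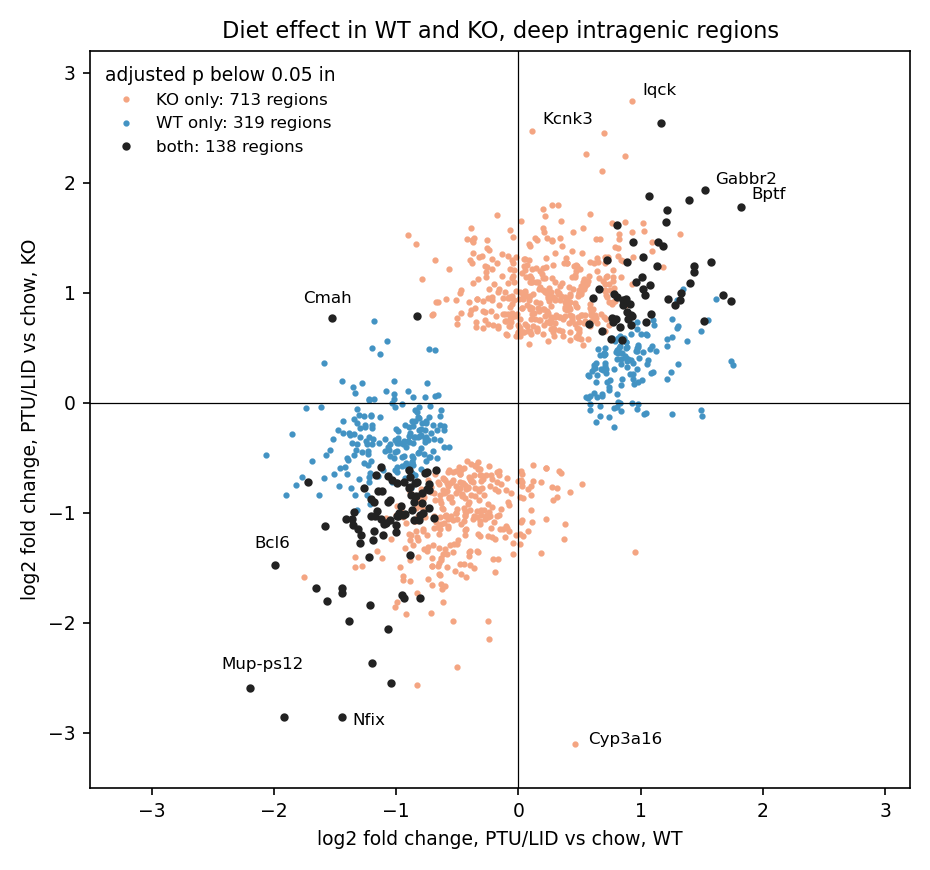
Log2 fold change of PTU/LID against chow in WT (x axis) and in KO (y axis) for members called in at least 1 of the 2 comparisons; colours give where a region was called. The 138 regions called in both (black) lie in the lower left and upper right except for 2, one of them inside Cmah.

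On chow, the KO was higher than WT at 151 members (1.05%, against 1.61% of all regions) and lower at the other members of the 297 called (1.02%, against 0.823%). Higher calls included regions inside Acot11, Cabcoco1, Cd36, Setbp1, Mup-ps12 and Mup5, and lower calls regions inside Tmem241, Spsb4, Vmp1 and Rxra. At 293 of the 297 the groups did not overlap (98.7%, as for all regions called), and 165 differed by more than 2-fold (55.6%, against 52.2%). Called or not, 24.2% of members had groups apart, against 23.5% of all regions. The Acot11 region at chr4:106767802-106768566 held 6.94, 6.02 and 4.14 CPM in WT chow and 24.9, 24.2 and 25.7 in KO chow. The KO values were all above the WT values (log2 fold change 2.09 ± 0.26, adjusted p = 3.28e-06). Of the 8 members inside Acot11, 5 were higher in the KO and the other 3 were above 0, and both regions at its annotated starts were higher as well. Cabcoco1 was higher at chr10:68529649-68531462, with 26.6, 30.4 and 40.0 CPM in WT chow and 88.7, 80.0 and 85.1 in KO chow, without overlap (log2 fold change 1.40 ± 0.18, adjusted p = 1.23e-05).

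Cd36, which takes up fatty acids, was higher in the KO at chr5:17847887-17849330, with 16.7, 14.9 and 16 CPM in WT chow and 35.2, 56.6 and 45.4 in KO chow. The genotypes did not overlap (log2 fold change 1.52 ± 0.22, adjusted p = 3.27e-05). Nfix and Mup-ps12, which fell on PTU/LID, were both higher in the KO on chow, by 1.03 (adjusted p = 0.000359) at chr8:84787881-84789882 and 1.10 (adjusted p = 0.000148) at chr4:61455339-61456376, and the comparisons of diet and of genotype share the chow libraries. Tmem241 was lower at chr18:12105211-12105788, with 18.2, 11.1 and 17.7 CPM in WT chow and 5.81, 4.28 and 3.36 in KO chow, without overlap (log2 fold change -1.83 ± 0.28, adjusted p = 9.31e-05). Spsb4, an adaptor of a ubiquitin ligase, was lower at chr9:96982169-96982417, with 6.61, 7.28 and 5.25 CPM in WT chow and 2, 1.49 and 1.83 in KO chow, again apart (log2 fold change -1.83 ± 0.37, adjusted p = 0.00427). Vmp1, a membrane protein of autophagy, was lower at chr11:86637352-86638206 by 1.55 (adjusted p = 0.00102) on the log2 scale.

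Few listed genes changed on chow, where 1.61% of all regions were higher in the KO and 0.823% lower. Nuclear receptors had no member higher and 3 lower of 263, all inside Rxra, the shared partner of many nuclear receptors, and all 31 members of Rxra were below 0 with a median of -0.60. The 3 became 1 without WT chow-96 and 0 without any other of the chow libraries, and 0 with cyclic loess offsets. Lipid synthesis genes had 4 higher and none lower of 163, inside Acaca and Acacb, which make malonyl-CoA, and the 4 became 0 without KO chow-122 or WT chow-96 and 1 without KO PTU/LID-232, KO PTU/LID-239, KO chow-146, KO chow-190, WT chow-106 or WT chow-99. Genes induced by thyroid hormone had 5 higher and none lower, inside Acaca and Gpd2, the mitochondrial glycerol-3-phosphate dehydrogenase, and the 5 became 1 without KO chow-146, WT chow-106, WT chow-96 or WT chow-99, 2 without KO chow-122 or KO chow-190, 3 without KO PTU/LID-232 or KO PTU/LID-239 and 8 without WT PTU/LID-135. Corepressors and coactivators had none called in either direction. Endothelial markers had 1 higher and 5 lower with a median of -0.36, at 1274 to 1319 CPM summed in WT chow and 1102 to 1319 in KO chow, and the 5 became 0 without KO chow-190, 1 without WT chow-99, 2 without KO chow-146 or WT chow-106 and 3 without KO chow-122, WT PTU/LID-280 or WT chow-96. The calls numbered 502 without WT PTU/LID-135 and 456 without KO PTU/LID-211, which enter through the shared spread, and 94 without WT chow-99, 97 without WT chow-106, 101 without KO chow-190, 134 without KO chow-146 and 183 without WT chow-96, and also smaller by over 1.5 times without KO chow-122. With TMM factors from members 68.4% of calls were upward, and with DESeq2 63.3%, in place of 50.8%.

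On PTU/LID, the KO was higher than WT at 408 members (2.84%, against 3.17% of all regions) and lower at 89 (0.62%, against 0.698%). Higher calls included regions inside Adcy1, Kcnk3, Galnt2, Gpd2, Stat5b, Papss2 and Prlr, and lower calls regions inside Tmem241, Vmp1, Atp2b2, Kcnh1 and Nfix. At 468 of the 497 the groups did not overlap (94.2%, against 94.8% of all regions called), and 223 differed by more than 2-fold (44.9%, against 43.0%). Over all members tested 18.7% had groups apart, against 19.1% of all regions. Adcy1, an adenylyl cyclase, was higher at chr11:7150768-7152446, with 14.9, 13.6 and 7.39 CPM in WT PTU/LID and 52.9, 53.3 and 63.6 in KO PTU/LID. The KO values were all above the WT values (log2 fold change 2.26 ± 0.25, adjusted p = 7.39e-07). Galnt2, which starts O-linked glycosylation, was higher at chr8:124266038-124268216, with 18.8, 35.3 and 22.6 CPM in WT PTU/LID and 68.3, 105 and 100.1 in KO PTU/LID, without overlap (log2 fold change 1.83 ± 0.23, adjusted p = 1.65e-05). Of its 19 members 6 were called higher, with a median of 1.0. Kcnk3 was higher at chr5:30614491-30615553, with 5.97, 5.17 and 10.7 CPM in WT PTU/LID and 28.1, 29.1 and 47.8 in KO PTU/LID, again apart (log2 fold change 2.25 ± 0.26, adjusted p = 5.61e-07).

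The growth hormone axis had 16 members higher in the KO on PTU/LID and none lower of 141 (11.3% higher, against 3.17% of all regions). The median of the 141 was 0.18, against 0.00 over all members. Prlr gave 8 of the 16 and Stat5b 5, and the rest lay inside Bcl6, Igf1 and Lepr. Stat5b was higher at chr11:100833720-100835095, with 22.7, 14.2 and 10.3 CPM in WT PTU/LID and 54.5, 37.5 and 43.9 in KO PTU/LID, without overlap (log2 fold change 1.55 ± 0.23, adjusted p = 3.26e-05), and all 24 of its members were above 0. The Lepr region at chr4:101741196-101743052 held 14.3, 19.6 and 20.5 CPM in WT PTU/LID and 54, 34.2 and 48.7 in KO PTU/LID, without overlap (log2 fold change 1.31 ± 0.19, adjusted p = 3.19e-05). The number higher was 6 without WT PTU/LID-280 and 9 without KO PTU/LID-232. The lower calls in WT on PTU/LID and these higher calls share the WT PTU/LID libraries and are not independent.

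Other lists differed in how many members were higher in the KO on PTU/LID. Xenobiotic and steroid metabolism had 12 members higher and none lower, of which Papss2 gave 8 and Por, the electron donor of cytochromes P450, 3. The Papss2 region at chr19:32621767-32623515 held 15.2, 21.1 and 18.9 CPM in WT PTU/LID and 32.7, 41.7 and 47.4 in KO PTU/LID, without overlap (log2 fold change 1.14 ± 0.19, adjusted p = 0.000208). Lipid synthesis had 11 higher (6.75%) and none lower of 163, inside Elovl5, which elongates polyunsaturated fatty acids, Acaca, Acacb and Gpat4. Genes induced by thyroid hormone had 10 higher (11.5%) and none lower of 87, with a median of 0.26. Gpd2 was higher at chr2:57254672-57255942, with 4.18, 8.61 and 11.1 CPM in WT PTU/LID and 13.6, 28.3 and 34.7 in KO PTU/LID (log2 fold change 1.66 ± 0.29, adjusted p = 0.000903). Nuclear receptors had 13 higher (4.94%) and none lower of 263. Rora gave 6 of the 13, and the other genes were Esrrg, Nr1i2, Nr5a2, Nr6a1 and Pparg. Against 2.84% of all members, fatty acid oxidation genes had none higher of 37, cholesterol and lipoprotein genes 3 of 190, and amino acid and urea genes 4 of 124 (3.23%). Without WT PTU/LID-280 the xenobiotic list had 7 higher and nuclear receptors 5. Nuclear receptors had 7 without WT PTU/LID-155, KO PTU/LID-232 or KO PTU/LID-239. Lipid synthesis had 6 without either of these KO libraries, and the thyroid list 6 without the first and 3 without the other.

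Lower members on PTU/LID were few. Tmem241 at chr18:12105211-12105788 held 17.3, 23 and 29.2 CPM in WT PTU/LID and 8.7, 6.07 and 5.39 in KO PTU/LID, without overlap (log2 fold change -1.83 ± 0.26, adjusted p = 1.58e-05). Vmp1 at chr11:86637352-86638206 held 18.5, 9.04 and 17.7 CPM in WT PTU/LID and 6.14, 2.76 and 4.66 in KO PTU/LID, also apart (log2 fold change -1.78 ± 0.30, adjusted p = 0.00027). Atp2b2, a calcium pump of the plasma membrane, was lower at chr6:113865445-113865649 by 1.99 (adjusted p = 0.00101) on the log2 scale, and Nfix at chr8:84722709-84723299 by 1.48 (adjusted p = 0.000688). The total of calls was 218 without KO PTU/LID-239, 238 without WT PTU/LID-280 and 254 without KO PTU/LID-232. It was 996, of which 80.1% upward, within the 5 libraries of lower mitochondrial share, which hold 2 of each genotype on PTU/LID.

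The 2 genotype comparisons share no library with each other. Called in both were 63 members, 21.2% of those on chow and 12.7% of those on PTU/LID, with 50 higher in both, 12 lower in both and 1 opposite. This overlap too was counted over members alone. Acot11 at chr4:106764403-106764904 held 8.27, 9.19 and 10.8 CPM in WT chow, 2.39, 2.37 and 3.28 in WT PTU/LID, 22.5, 19.4 and 26.3 in KO chow, and 7.16, 15.7 and 18.7 in KO PTU/LID. The KO was higher on both diets without overlap, by 1.29 ± 0.26 on chow (adjusted p = 0.00315) and 2.38 ± 0.32 on PTU/LID (adjusted p = 6.28e-06) on the log2 scale. Papss2 had 4 of 26 members higher on chow and 8 on PTU/LID.

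The diet effect differed between the genotypes at 27 members (0.188%, against 0.23% of all regions), by the interaction term of the same fit: 23 with a more positive effect in KO, as in 0.158% of all regions, and 4 with a more negative one, as in 0.0722%. The Cmah region at chr13:24364133-24366323, inside the gene of the hydroxylase that makes N-glycolylneuraminic acid, had the lowest adjusted p among them. It held 55.7, 40.5 and 56 CPM in WT chow, 12.8, 20.2 and 19.5 in WT PTU/LID, 23.8, 24.4 and 16.8 in KO chow, and 42.5, 34 and 35 in KO PTU/LID. PTU/LID lowered it in WT (log2 fold change -1.52 ± 0.20, adjusted p = 2.9e-06) and raised it in KO (log2 fold change 0.77 ± 0.19, adjusted p = 0.00913), and the diets did not overlap in either genotype. The rise in KO alone was not called without KO chow-190. The difference of the 2 effects was 2.30 ± 0.28 (adjusted p = 2.04e-05), and it stayed called without any single library. Lyrm4, needed to build iron-sulfur clusters, had 4 of its 6 members called, and the region at chr13:35994397-35996196 held 28.8, 19.6 and 24.6 CPM in WT chow, 19.4, 15.7 and 11.5 in WT PTU/LID, 13.6, 22.9 and 16.5 in KO chow, and 30.7, 40.2 and 58.5 in KO PTU/LID. The log2 fold change on PTU/LID was -0.68 ± 0.24 in WT (adjusted p = 0.11) and 1.30 ± 0.22 in KO (adjusted p = 0.000147). The difference was 1.98 ± 0.33 (adjusted p = 0.00344), which also stayed called without any single library.

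Other interaction calls were lost without 1 library or another. Nfix at chr8:84787881-84789882 fell further in KO than in WT, with a difference of -1.41 ± 0.27 (adjusted p = 0.0102), lost without KO chow-190 or WT PTU/LID-280. Lepr at chr4:101741196-101743052 held 48.3, 55.8 and 46.6 CPM in KO chow and 54, 34.2 and 48.7 in KO PTU/LID, which overlap, against the fall in WT given above, with a difference of 1.20 ± 0.26 (adjusted p = 0.0328), lost without KO PTU/LID-211, KO PTU/LID-239, KO chow-122, KO chow-190, WT chow-106 or WT chow-99. Zfp445, a zinc finger protein that guards imprinted loci, differed at chr9:122863949-122865285 by 1.69 ± 0.32 (adjusted p = 0.00898), lost without KO PTU/LID-232 or WT chow-106. Of the 16 members from this comparison reported here, 2 stayed called in every such removal. The total was 5 without WT chow-106, 8 without KO PTU/LID-239, 9 without KO chow-190, 11 without WT chow-99, 12 without KO chow-122, 13 without KO PTU/LID-232, 14 without WT PTU/LID-280 and 41 without WT PTU/LID-135.

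Called members of one host mostly had the same direction. Of the hosts with 2 or more members called, 30 had all higher, 52 all lower and 6 both in WT on PTU/LID, and 89, 69 and 17 in KO. For the genotype the numbers were 31, 17 and 4 on chow and 87, 6 and 2 on PTU/LID. The hosts with both directions in WT on PTU/LID were Acacb, Adgrv1, Pitpnc1, Prkce, Rad51b and Setbp1. Over 8952 pairs of members of one host at most 2 kb apart, the log2 changes correlated with Pearson's r of 0.55, 0.63, 0.53 and 0.51 in the 4 comparisons in the order above. Over 26711 pairs more than 50 kb apart r was 0.12, 0.18, 0.09 and 0.15. These are descriptions: pairs share their libraries, and near pairs can be parts of one acetylated stretch.

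Most calls deep in a gene had no call in the same direction at its start. Start regions here leave out members, also those at an internal start. In WT on PTU/LID, a region at the host's own start was called in the same direction for 7.46% of the higher and 10.6% of the lower members that have one, and in KO for 9.55% and 15.9%. For the KO on PTU/LID it was 14.7% and 4.76%, and for the KO on chow 40.9% of 66 higher members and 1.18% of 85 lower ones. Of all regions within 2.5 kb of a gene end, not only at starts, 1.63% were higher and 1.22% lower in WT on PTU/LID. In KO the shares were 1.53% and 1.95%, for the KO on PTU/LID 1.58% and 0.792%, and on chow 1.1% and 0.443%. The differences were not tested, and a host can have several start regions. Prlr was called higher at its start in the KO on both diets, by 0.87 on chow and 0.82 on PTU/LID on the log2 scale. Papss2, Ghr and Stat5b had no such start region called in any comparison of 2 groups. Members at internal starts of Papss2 and Stat5b were called for the KO on PTU/LID, as given above. A start region that was not called may still have changed.

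**Figure D5:**
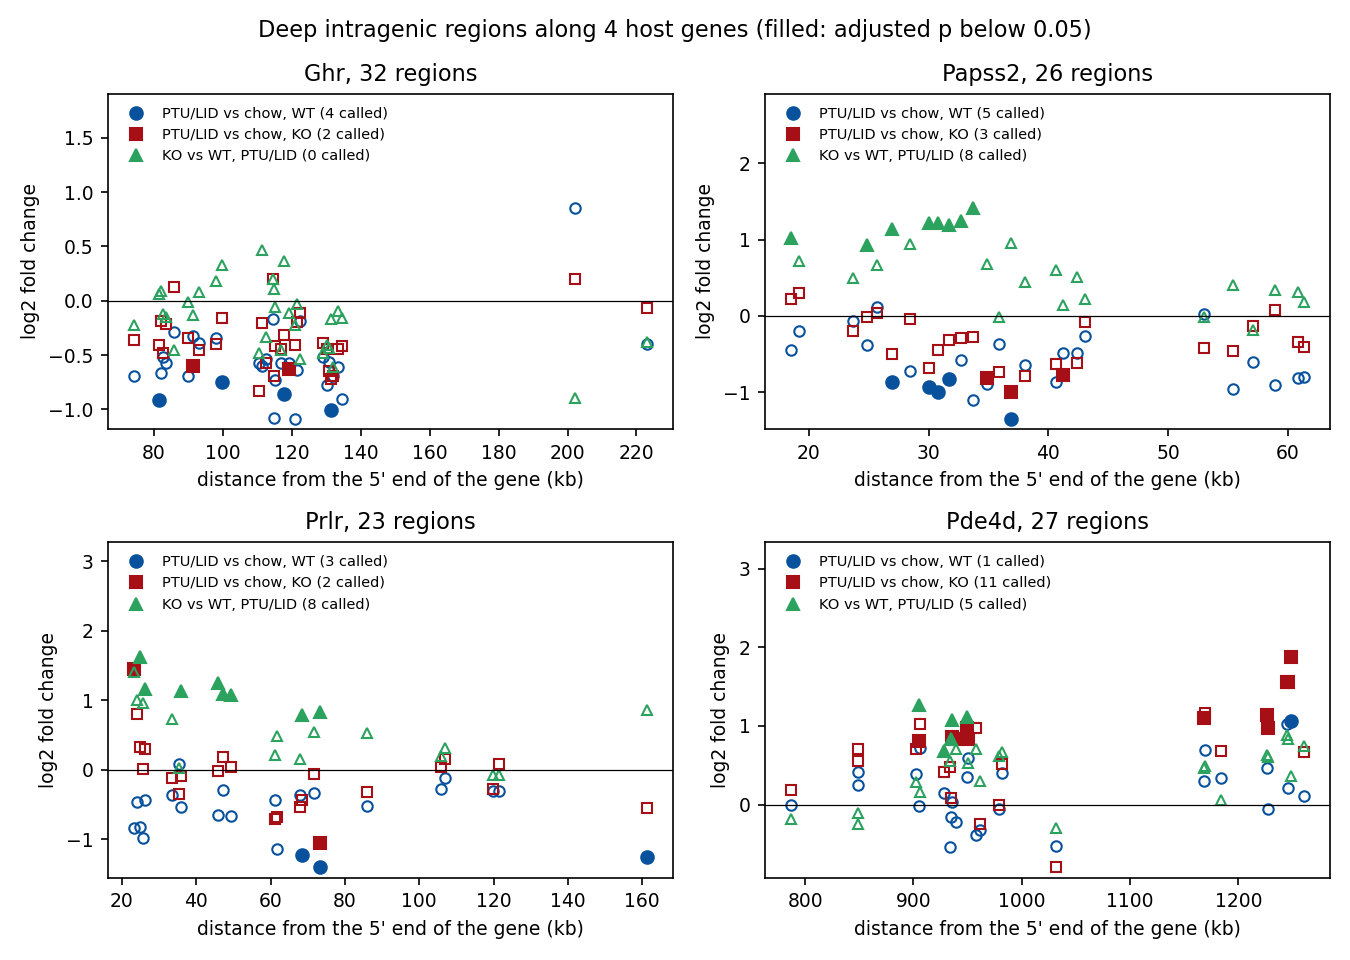
Log2 fold change of each member against its distance from the 5′ end of the gene in kb, for Ghr, Papss2, Prlr and Pde4d; circles and squares are PTU/LID against chow in WT and KO, triangles KO against WT on PTU/LID, and filled symbols have adjusted p below 0.05. Members of Ghr lie mostly below 0 on PTU/LID (31 of 32 in WT), and those of Papss2 lie mostly below 0 in WT on PTU/LID and above 0 for the KO on PTU/LID (23 of 26).

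The lists not yet counted had few calls, and most of these counts changed with single libraries. In these lists a count of members higher or lower is followed in parentheses by its lowest and highest value over the 12 removals of 1 library, where it changed. Cholesterol and lipoprotein genes had 190 members. With the diet 1 (0 to 2) and 4 (2 to 7) of them rose and fell in WT and 1 (0 to 3) and 8 (1 to 13) in KO, with Scap, the escort of the sterol-sensing transcription factors, lower in both. The 8 lower in KO became 1 without KO PTU/LID-239, 2 without KO PTU/LID-232, 3 without KO chow-190 and 13 without KO PTU/LID-211. For the KO, 3 (0 to 6) and 0 were higher and lower on chow and 3 (0 to 5) and 1 (0 to 1) on PTU/LID. Bile acid genes, with 72 members, had 1 (0 to 3) and 1 (0 to 1) in WT and 3 (0 to 4) and 2 (0 to 2) in KO with the diet, and 2 (0 to 3) and 0 on chow and 2 (0 to 3) and 0 on PTU/LID for the KO. Fatty acid oxidation genes, with 37, had 0 and 1 (0 to 1) in WT and 0 and 2 (1 to 2) in KO, both inside Ppara, and for the genotype 0 and 0 on chow and 0 (0 to 1) and 0 on PTU/LID. Amino acid and urea genes, with 124, had 0 (0 to 1) and 1 (0 to 2) in WT and 0 (0 to 2) and 0 (0 to 1) in KO with the diet, and 2 (1 to 10) and 0 on chow and 4 (1 to 6) and 0 on PTU/LID for the KO, where Slc38a4, an amino acid transporter, was higher on both diets. Clock genes, with 87, had calls inside Rora alone: 1 (0 to 4) and 0 (0 to 3) in WT and 4 (2 to 6) and 0 in KO with the diet, 0 and 0 (0 to 1) on chow and 6 (2 to 7) and 0 for the KO on PTU/LID. The 6 became 2 without WT PTU/LID-280. Complement, coagulation and acute phase genes, with 58, had 0 and 1 (0 to 2) in WT and 2 (1 to 2) and 3 (0 to 4) in KO with the diet, and 0 and 2 (1 to 2) on chow and 1 (0 to 2) and 1 (0 to 3) on PTU/LID for the KO.

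The counts that complete the lists described above are given in the same way, higher before lower. With the diet in WT, nuclear receptors had 1 (0 to 5) and 2 (0 to 6), lipid synthesis 1 (0 to 3) and 2 (0 to 4), coregulators 1 (0 to 1) and 0, glucose and glycogen genes 4 (1 to 12) and 0 (0 to 1), including those inside Gbe1, Pde4d and Slc2a9, and calcium signalling 5 (0 to 10) and 2 (0 to 5). With the diet in KO, genes induced by thyroid hormone had 6 (1 to 6) and 2 (2 to 3), the higher ones all inside Ppargc1a, lipid synthesis 4 (1 to 6) and 2 (0 to 2), and adhesion genes 15 (8 to 24) and 21 (10 to 23). For the KO on chow, the growth hormone axis had 2 (0 to 4) and 0, glucose genes 4 (1 to 6) and 0, xenobiotic genes 5 (0 to 7) and 1 (0 to 2), liver transcription factors 8 (1 to 12) and 5 (0 to 8), adhesion genes 10 (4 to 15) and 10 (2 to 19) and calcium signalling 3 (0 to 6) and 3 (1 to 4). The 8 liver transcription factor members became 1 without KO chow-190, 2 without WT chow-99, 3 without KO chow-122 or WT chow-96 and 4 without KO chow-146. For the KO on PTU/LID, corepressors and coactivators had 4 (1 to 5) and 0 (0 to 1), glucose genes 7 (4 to 10) and 0 (0 to 2), liver transcription factors 10 (4 to 11) and 4 (1 to 6), adhesion genes 15 (6 to 21) and 3 (0 to 5), calcium signalling 21 (8 to 32) and 7 (2 to 7), and endothelial markers 0 and 1 (0 to 4). The 21 of calcium signalling became 8 without KO PTU/LID-239, 9 without WT PTU/LID-280, 10 without KO PTU/LID-232 and 32 without KO PTU/LID-211. The interaction was called for 1 member inside Lepr, 1 inside Foxp1, 1 inside Nfix, 1 inside Ets1, and 1 each inside Cobll1 and Tns1 of the adhesion list.

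Markers of the other cells of liver had few members. Kupffer cell and macrophage genes had 10 in 7 genes, with Fyb, an adaptor of immune cells, lower in WT on PTU/LID and Ly86 higher in the KO on PTU/LID. Their summed level was 54.5 to 64.3 CPM in WT chow, 35.6 to 56.7 in WT PTU/LID, 46.5 to 51.0 in KO chow and 45.8 to 47.9 in KO PTU/LID, and no region analysed lay in Adgre1, which defines these cells. Stellate cell genes had 7 members and bile duct genes 15, none called. Lymphocyte genes had 50, with calls inside Ets1 alone: 3 lower in WT with the diet and 1 lower in KO, and 1 higher and 2 lower for the KO on chow. The 3 became 0 without WT PTU/LID-280 or WT chow-99, 1 without WT PTU/LID-155 or WT chow-96 and 6 without WT PTU/LID-135.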

How the data were processed

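H3K27ac was measured by ChIP-seq in 12 liver libraries; 4 input libraries were not analysed here. The authors deposited 1 table of read counts, whole numbers per region and library, over 52645 regions on mm10. Per the submitters' processing notes, which give no roles, the tools were MACS2 2.1.1, bedtools 2.26.0, Picard 2.8.1, Bowtie2 2.2.1 and bcl2fastq 2.17.1.14; how the shared regions were made is not given in the sources used here. Regions were placed with RefSeq genes of GRCm38.p6 (21900 protein-coding genes).

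Counts were fitted in edgeR 4.0.16 (R 4.3.3): TMM factors, filterByExpr with a minimum count of 10, 1 mean for each of the 4 groups over all 12 libraries, robust quasi-likelihood tests, and Benjamini-Hochberg adjustment over the 52606 regions tested, called below 0.05. The test of the difference between diet effects is a contrast of the same fit. The script was tested on simulated data. An SE is the log2 fold change divided by the square root of F. The median member had 25 to 52 counts per library, which limits the precision.

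Named regions are, for each comparison, the 10 most raised and 10 most lowered called members whose groups do not overlap, 1 per host, with up to 8 of each sign called in both diet or both genotype comparisons, up to 4 of each gene list with the lowest adjusted p, the 6 highest levels, the hosts with most members and the other regions of a described host. Likeness is Pearson's r of log2(CPM + 0.5) over 12 libraries. Ghr, Enpp2, Papss2, Stat5b and Srebf1 regions outside this rule, and hosts described as wholes, were chosen after their values were seen. The members and the 22 gene lists were chosen with earlier results of these data known. Alternatives were other scalings (RLE, cyclic loess with limma 3.58.1, TMM from members), count filters, DESeq2 1.42.0, only the groups compared, mitochondrial share as a term, other distance and length limits, and leaving out each library. Comparisons within the 7 libraries of higher and the 5 of lower mitochondrial share (above and below 2%) were added after seeing the data. A few regions that the rule names are not reported here.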

Additional observations from a re-analysis of the deposited data

Results flagged for a closer look

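At 16 of the named members reported here the effect of PTU/LID differed between KO and WT by the interaction term of edgeR's quasi-likelihood fit, at a Benjamini-Hochberg adjusted p below 0.05. Values are the log2 effect in KO minus that in WT. The difference was positive inside Arl15 (1.74), Cmah (2.30), Cobll1 (1.46), Foxp1 (1.33), Kcnk3 (2.36), Lepr (1.20), Lyrm4 (1.98), Ppat (1.63), Ppfibp1 (1.57), Rlf (1.87), Tns1 (1.64) and Zfp445 (1.69). It was negative inside Cyp3a16 (-3.57), Ets1 (-1.51), Nfix (-1.41) and St3gal3 (-1.26). The Cmah and Lyrm4 regions stayed called when any 1 library was left out, and the other 14 did not. The Ets1 region at chr9:32730849-32732006 held 13.4, 23.4 and 21.5 CPM in WT chow, 12.5, 7.97 and 7.8 in WT PTU/LID, 54.6, 36.8 and 38.7 in KO chow, and 7.42, 7.73 and 7 in KO PTU/LID. Cyp3a16 at chr5:145453960-145454532 held 0.992, 2.85 and 4.14 CPM in WT chow, 2.69, 1.72 and 5.54 in WT PTU/LID, 9.07, 10.2 and 10.5 in KO chow, and 2.05, 0.552 and 1.17 in KO PTU/LID, and its call was lost without WT PTU/LID-280.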

How the results depend on the processing

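No paired analysis was possible because no replicate number is shared between the H3K27ac groups. Without each library in turn, the members called ranged from 140 to 834 for the diet in WT, 423 to 1064 for the diet in KO, 94 to 502 for the genotype on chow, 218 to 639 for the genotype on PTU/LID and 5 to 41 for the interaction. With only the compared groups in the fit the counts were 303 (diet in WT), 640 (chow) and 307 (PTU/LID). A term for mitochondrial share gave 912 on chow, 846 on PTU/LID and 105 for the interaction. Within the 7 libraries of higher share there were 82, 451, 475 and 87 calls for the comparisons of 2 groups in the order above, and within the 5 of lower share 996 on PTU/LID. In the higher set the diet comparisons have 1 PTU/LID library and the genotype on PTU/LID is 1 library against 1, so its values say nothing about stability. A group left with 1 library takes its spread from the other groups, and the lower set gives no value for the diet in KO or the genotype on chow. Calls above a 2-fold change were 209, 420, 165 and 223. Limits of over 20 kb from gene ends gave 190 on chow and 14 for the interaction, and lengths below 1000 bp 292 on PTU/LID and 13 for the interaction. For the interaction, cyclic loess offsets gave 57, TMM from members 13 and DESeq2 46. TMM from members made 69.2% of the interaction calls positive, the term for mitochondrial share 71.4% and the higher set 56.7%, in place of 85.2%. All other counts of members called in a whole comparison stayed within 1.5 times, and counts for single gene lists often did not.

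Of the named regions, 4 log2 changes turned sign, all within the 7 libraries of higher share: Camk2b for the diet in WT (-0.105), and Cd36 (-0.112), Lipc (-0.307) and Rlf (-0.094) for the genotype on PTU/LID, there 1 library against 1. The causes were not tested. Calls kept without any single library were 30 of 87 named regions for the diet in WT, 65 of 119 for the diet in KO, 20 of 87 on chow and 45 of 100 on PTU/LID. With 25 to 52 counts at the median member, changes at weak members may be missed.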
